A study of Mus musculus with 8 samples.

Results

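Protein synthesis factors are the soluble proteins that bring mRNA, tRNA and ribosome together. The 72 genes described here mainly encode the mouse initiation, elongation and release factors with the poly(A)-binding proteins. They were chosen by symbol alone, out of 16980 genes in the deposited table: every symbol that begins with Eif1 to Eif6, Eef1 or Eef2, together with Etf1, Gspt1, Gspt2, Pabpc1 and Pabpc4, but without the Eif2ak kinases. Of these, 70 are annotated as protein-coding and 2 as pseudogenes. The symbols also take in repressors of eIF4E and enzymes that act on elongation factors, and all 72 genes are called factors below. All 8 libraries came from N2A (Neuro 2A), a mouse neuroblastoma line that puts out neurites when the cannabinoid 1 receptor (CB1R) is stimulated. Cells were kept in serum-free medium for 16 h and then given 2 µM of the CB1R agonist HU210, dissolved in DMSO, or DMSO without drug, for 2, 4, 6 or 8 h. All groups therefore share the serum starvation and the solvent. The RNA of 2 to 3 independent experiments was pooled into 1 library per condition, so a difference at a single time point has no replicate check and no test is given for it.

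Initiation begins when eIF2, bound to GTP and the initiator tRNA (the ternary complex), joins the small ribosomal subunit with eIF1, eIF1A, eIF5 and the large scaffold eIF3, while eIF4E, eIF4G and the helicase eIF4A bring in the capped mRNA. eIF2B recharges eIF2 with GTP and is the step that stress kinases block. eEF1A then delivers each aminoacyl-tRNA, eEF2 moves the ribosome along, and eRF1 (Etf1) with eRF3 (Gspt1, Gspt2) ends the chain. Many of these factors, like the ribosomal proteins, are made from TOP mRNAs, which start with a run of pyrimidines and whose translation follows mTOR signalling and serum. In neurons, translation is known to supply proteins both in the cell body and in growing neurites.

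The values are FPKM, sequenced fragments scaled to the length of the transcript and to the size of the library, and differences are given as log2 of HU210 over DMSO after 1 was added to each FPKM. On this scale 0 is no difference, and a 1.5-fold or 1.3-fold difference was used to describe a gene as higher or lower. A gene is called expressed at an hour where its FPKM reached 1 with HU210 and with DMSO. The table holds no read totals and no counts per gene, so no counting interval is given. Between 11328 and 11444 genes reached an FPKM of 1 in a library. Of 12 markers of neuroblastoma cells and neurons, 11 were listed and 10 had a mean FPKM of at least 1, Hand2 at 70.5 to 107.9 and Stmn2 at 129 to 157 among them, while Nefl was listed at no more than 0.0038. Of 10 markers of astrocytes, oligodendrocytes, microglia and fibroblasts, 6 were listed and 4 of them stayed under 1 in every library. Mbp, a myelin gene, was at 3.59 to 5.10.

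Pyrimidine runs at or near annotated starts of TOP genes are shown first, because the class includes the most abundant genes of the group, Eef1a1 and Eef2. For the 4 of 10 known TOP genes with the longest runs, 30 bases around an annotated transcript start are given from the genome (mm9), with the unbroken run of C and T that begins with C in capitals. Each of these 4 runs was 15 bases long. The run begins 3 bases before the annotated start in Pabpc1, 5 in Eif3h and 6 in Eif3f, while in Eef1d it begins 15 bases before and so ends just upstream of the annotated transcript.
Pabpc1 (chr15:36538710-36538739, minus strand): aggcggtgCTTCCCCTTCTCCCCggcggtt
Eef1d (chr15:75739721-75739750, minus strand): cgcgggcgCCCTCCCTCTCCTTTgcagtcc
Eif3h (chr15:51697011-51697040, minus strand): gcctcacgCTTCTCTTTCTTCCTgtctggc
Eif3f (chr7:116077917-116077946, plus strand): gttctaggCTCTCTCTCTTTCTCggcaaga
Within 20 bases of any annotated start, a run of at least 8 such bases was present in 7 of the 10 TOP genes (70.0%), in 18 of the 60 other coding genes of the group (30%), in 44 of 72 cytosolic ribosomal protein genes (61.1%) and in 23.9% of 14540 genes with a coding transcript. Eef1b2, Eef2 and Eif3e were the TOP genes without a run of this length in these windows. Genes with more annotated starts had more chances to hold a run, and a match of letters is a description only.

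The most abundant genes of the group were elongation factors, led by Eef1a1, the tRNA carrier, at 3463 ± 640.0 FPKM. Values are mean ± SD over the 8 libraries, which differ in time and treatment. Eef2, the translocase, followed at 1032 ± 51.6. Eef1b2, a subunit of the exchange factor that reloads eEF1A, was at 777 ± 82.5. Of the other elongation genes, Eif5a, which keeps ribosomes moving over difficult stretches, was at 550.4 ± 22.4. Eef1g, another exchange factor subunit, was at 484 ± 58.3, while Eef1e1 (47.3) and Eif5a2 (6.24) were far lower. In every library Eef1a1 was above Eef2. The lowest Eef2 value (935) and the highest Eef1b2 value (934) nearly met, while the ranges of Eif5a (515 to 583) and Eef1g (419.7 to 572) overlapped. Among initiation factors Eif4g2, an eIF4G relative that does not bind the cap protein, was highest at 517 ± 38.4, and Eif3h led the eIF3 subunits at 389.6 ± 38.2. Eif1, which guards start codon choice, led its group at 246 ± 16.1, Eif2b2 led the eIF2B subunits at 64.4 ± 7.28, Eif6, which holds ribosomal subunits apart, led the termination and joining group at 130.4 ± 19.5, and Eef1akmt1, a methyltransferase of eEF1A, led the modifying enzymes at 27.6 ± 1.09. A mean of at least 100 FPKM was reached by 28 of the 72 genes, at least 10 by 61, and less than 1 by 7.

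**Figure D1:**
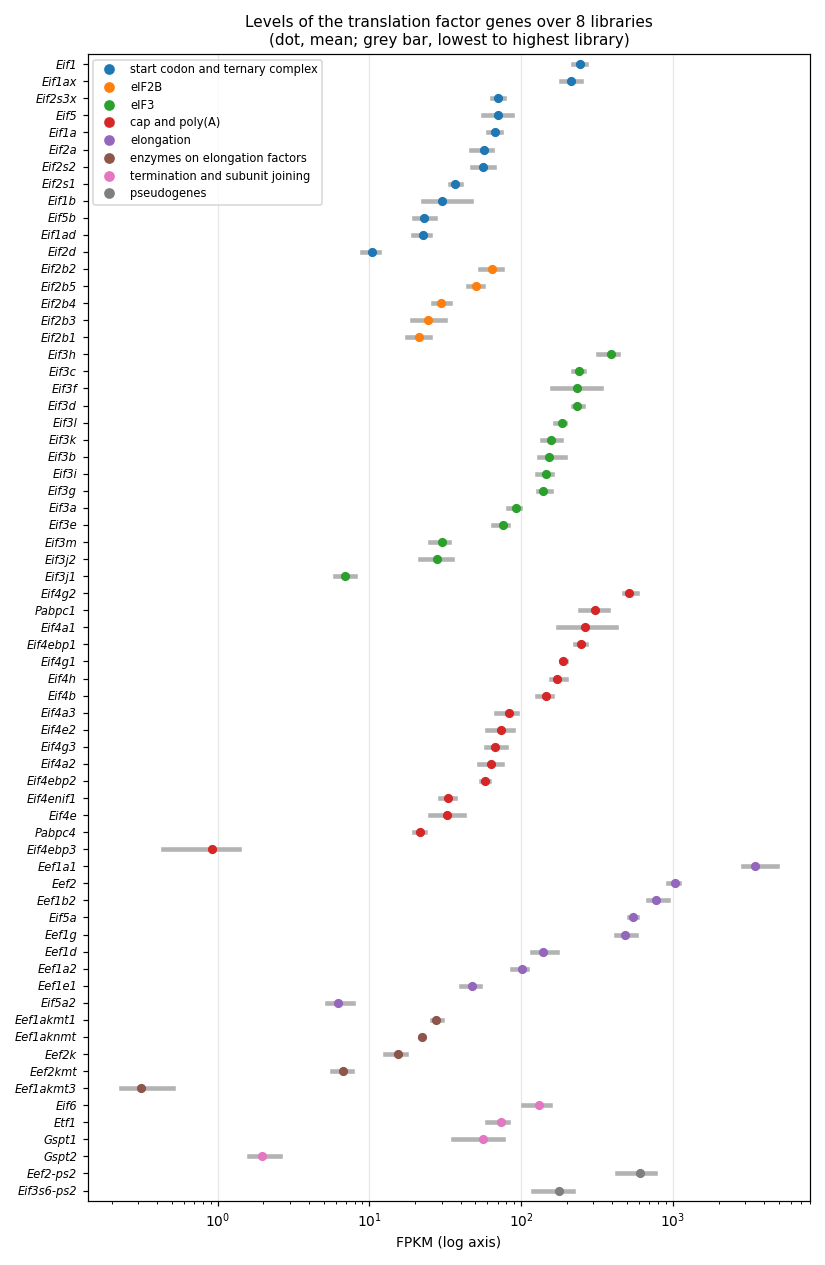
FPKM of 67 translation factor genes on a log axis, grouped by role, with the mean of the libraries that list the gene (dot) and the range from the lowest to the highest library (grey bar). Eef1a1 stands highest at 2890.3 to 4879.8 FPKM, and the 5 Eif1ad copies, at 0.259 FPKM or less, are not drawn.

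The 7 lowest were Eif4ebp3, a translational repressor of eIF4E, at 0.440 to 1.39 FPKM, the methyltransferase gene Eef1akmt3 at 0.229 to 0.505, and the 5 genes Eif1ad2, Eif1ad3, Eif1ad6, Eif1ad7 and Eif1ad8, which never exceeded 0.259. These 5 sit close together on chromosome 12, and the coding sequences of Eif1ad2 and Eif1ad6 are identical, so coding reads of the pair cannot be told apart. Eef1aknmt was listed only at 6 h, at 22.6 FPKM with HU210 and 21.5 with DMSO, which leaves 71 genes at 2, 4 and 8 h. No gene was listed under the symbols Eif2s3y, Eif4e3 or Eif4e1b.

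In each pair of paralogs compared, 1 gene was the more abundant in all 8 libraries. The Eef1a1 level was 29.1 to 48.5 times that of Eef1a2, the form of adult neurons and muscle, with the highest ratio in the 4 h DMSO library. Eif5a was 73.5 to 102 times Eif5a2, Gspt1 was 22.2 to 37.4 times Gspt2, and Pabpc1 was 11.6 to 18.2 times Pabpc4. Eif4a1, the main cap helicase, was 2.49 to 6.70 times Eif4a2, the widest relative range of these pairs. Eif4e2, a cap protein that does not bind eIF4G in the usual way, was 1.71 to 3.30 times Eif4e, and Eif4ebp1 was 3.85 to 4.61 times Eif4ebp2.

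Both pseudogenes were listed at levels far above most genes, and both resemble an abundant parent. Eef2-ps2 (chr4:142831927-142833271, minus strand, mm9) was at 428 to 759.8 FPKM against 935 to 1094 for Eef2. Its 1345 bases align to coding bases 1233 to 2577 of Eef2 with 41 mismatches (96.95% identity), and the first 200 bases of that alignment are shown, with the 9 mismatches in capitals.
Eef2 coding sequence: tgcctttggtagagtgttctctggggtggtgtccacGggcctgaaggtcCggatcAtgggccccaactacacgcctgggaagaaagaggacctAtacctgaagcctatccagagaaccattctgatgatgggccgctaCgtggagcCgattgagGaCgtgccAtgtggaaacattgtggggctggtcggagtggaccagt
Eef2-ps2: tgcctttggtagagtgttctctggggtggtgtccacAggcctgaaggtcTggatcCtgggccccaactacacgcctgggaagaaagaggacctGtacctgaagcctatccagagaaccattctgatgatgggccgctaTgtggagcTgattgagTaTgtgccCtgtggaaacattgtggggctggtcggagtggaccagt
Reads that fall between mismatches fit both places. Eif4a1 has a still closer intronless copy, annotated as the pseudogene Eif4a-ps4 (chr1:60760776-60761996, plus strand), that differs at 1 of 1221 coding bases (G534A, counted from 1 at the start codon, Eif4a1 base first). The 80 bases around it are shown with this base in capitals.
Eif4a1 coding sequence: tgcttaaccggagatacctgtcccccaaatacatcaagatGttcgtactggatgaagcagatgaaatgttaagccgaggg
Eif4a-ps4: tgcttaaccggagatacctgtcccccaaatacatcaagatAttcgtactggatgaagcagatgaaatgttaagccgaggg
That copy has no row of its own in the table. In all, 21 of the 70 coding genes had at least 1 copy elsewhere in mm9 with at least 95% identity over at least 80% of the coding sequence in 1 stretch, among them Eif1 with 14, Eef1a1 with 7, Pabpc4 with 5 and Eif4e with 1. The submitters corrected for reads with several matches, but how these reads were divided cannot be seen in FPKM, and the values of these 21 genes carry that uncertainty.

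The spread over the 8 libraries was set beside that of other genes. The SD of log2(FPKM + 1) had a median of 0.139 over the 64 factors listed at all time points with a mean FPKM of at least 1, and of 0.145 over the 11306 genes that meet the same limits. Eif4g1, the cap scaffold, was the steadiest at 182 to 197 FPKM (SD 0.032 on the log2 scale). Eif4a1 at 176 to 425 (SD 0.42) and Gspt1 at 35.7 to 76.5 (SD 0.36) varied the most. By library, the 4 h HU210 library held the highest value for 15 of these 64 genes and the 4 h DMSO library for 14. The lowest value was in the 8 h DMSO library for 19, the 2 h HU210 library for 13 and the 4 h DMSO library for 11. Such counts were not made over all genes. Over all genes the median absolute distance from the median of the 8 libraries was largest at 4 h, at 0.108 with HU210 and 0.139 with DMSO. For the 64 factors it was 0.114 and 0.107 in these libraries, and 0.115 in the 8 h DMSO library, where all genes had 0.086.

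At 2 h no factor differed by 1.5-fold between HU210 and DMSO, beside 2.02% of the 16499 genes listed and 1.71% of the 11239 expressed genes. Past 1.3-fold, 1 of 64 expressed factors was higher with HU210 (background 1.33%) and 5 were lower (background 3.71%). The higher one was Eif4a1, at log2 0.39. The lower ones were Eef2-ps2 (-0.49), Eif3f (-0.45), Eif3j2 (-0.40), Eef1e1 (-0.39) and Eif3j1 (-0.39). The difference was negative for 44 of 64 factors (background 64%), with a median of -0.086 beside -0.051 over all expressed genes. With the DMSO level averaged over all hours as reference, the factors' median was 0.0077. All 9 genes grouped by symbol under elongation, Eef1e1 among them, and all 5 eIF2B subunits were below their DMSO values. The medians were -0.11 and -0.19. Below their DMSO values too were 19 of 20 cytosolic aminoacyl-tRNA synthetases. With pairs centred on their median ratio, Eef1a1 (0.0098) and Eif2b4 (0.044) were positive, and the medians were -0.059 and -0.14. Against the averaged DMSO level, Eef1b2 (0.071), Eif2b2 (0.17) and Eif2b4 (0.017) were positive.

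At 4 h the pair of libraries differed most, for the factors as for the whole table. Past 1.5-fold were 4 of 71 factors, all lower with HU210, beside 8.62% of the 16557 genes listed and 11.2% of the 11177 expressed genes. These 4 were Eif1b, a paralog of the start codon factor Eif1, Eef1a1, Pabpc1, which coats the poly(A) tail and loops it to the cap, and Eif4e, the cap-binding protein. Past 1.3-fold, 6 of 64 were higher (background 8.9%) and 9 were lower (background 19.8%). The median difference was 0.035 over the 64 factors and -0.081 over all expressed genes. Its sign depends on the processing, since without the trend on GC content and length described further on the factors' median was -0.037.

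Eif1b (chr9:120401724-120404445) measured 26.4, 22.6, 33.6 and 29.99 FPKM with HU210 at 2, 4, 6 and 8 h and 29.9, 46.7, 24.3 and 28.5 with DMSO, a log2 difference of -1.02 at 4 h. The 4 h DMSO library was the highest of the 8 and the 4 h HU210 library the lowest. Eef1a1 (chr9:78326256-78336958) measured 3121, 3115, 3114 and 3625 with HU210 and 3210.4, 4879.8, 2890.3 and 3749 with DMSO, with -0.65 at 4 h. The HU210 value at 4 h lay among the other libraries, and the DMSO value at 4 h was the highest of all. Pabpc1 (chr15:36525416-36538728) measured 329, 246, 326 and 345 with HU210 and 319.8, 372, 274 and 252 with DMSO, with -0.59 at 4 h and 0.45 at 8 h. Eif4e (chr3:138189155-138220563) measured 34.7, 27.6, 36.9 and 29.6 with HU210 and 34.6, 42.0, 30.5 and 24.9 with DMSO, with -0.59 at 4 h. For Pabpc1 the 4 h pair held the lowest HU210 and the highest DMSO value, and for Eif4e the 4 h DMSO library was again the highest of the 8. In bulk RNA, a lower level in every cell and fewer cells with the transcript cannot be told apart.

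**Figure D2:**
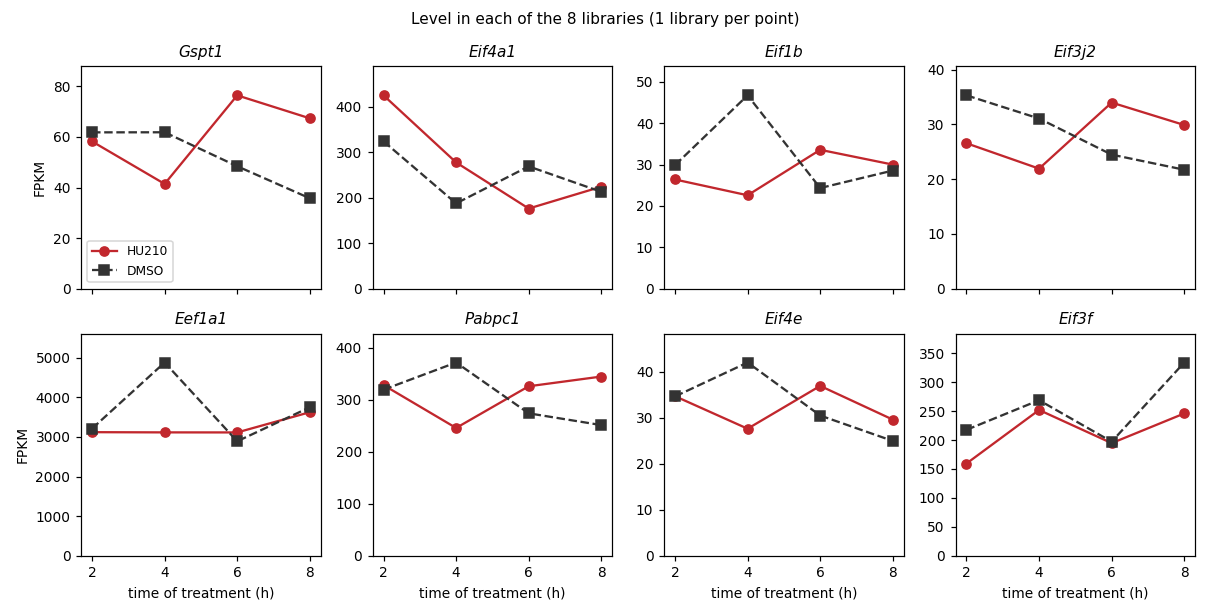
FPKM of 8 translation factor genes against time (h), with 1 library per point, HU210 as circles and DMSO as squares, each axis starting at 0. Gspt1 with HU210 runs below DMSO at 4 h and above it at 6 and 8 h, and the high 4 h values of Eif1b and Eef1a1 are in the DMSO library.

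Below 1.5-fold but past 1.3-fold at 4 h, the lower genes were Gspt1 (-0.57), Eif5a2 (-0.51), Eif3b (-0.49), Eif3j2 (-0.48) and Eif5 (-0.40), the last being the factor that triggers GTP hydrolysis by eIF2. The higher genes were Eif4a1 (0.56), the exchange factor subunits Eef1d (0.55) and Eef1g (0.45), Eif6 (0.50), Eif1ax (0.43) and the eIF3 subunit Eif3k (0.42). The elongation group thus held genes on both sides at this hour: the carrier Eef1a1 was lower while the exchange factor subunits Eef1b2 (0.29), Eef1d and Eef1g were higher. Of these 15 genes, the DMSO library was farther than the HU210 library from the median of the other 6 libraries in 8, and the HU210 library in 7. When the 4 h HU210 value was instead set against the DMSO level averaged over all hours, 1 of the 15, Eif1b, was still past 1.3-fold (-0.46), and Eef1a1 stood at -0.21, Pabpc1 at -0.29 and Eif4e at -0.23.

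At 6 h 2 factors passed 1.5-fold, beside 2.42% of the 16372 genes listed and 2.09% of the 11246 expressed genes. Gspt1 (eRF3a), the GTPase that works with eRF1 at stop codons, was higher with HU210 (0.65), and Eif4a1 was lower (-0.61). Past 1.3-fold, 3 of 65 were higher (background 6.26%), with Eif3j2 (0.46) and Eif1b (0.45) beside Gspt1, and 1 was lower (background 1.44%). At 8 h the factors past 1.5-fold were Gspt1 (0.90) and the pseudogene Eif3s6-ps2 (0.59), beside 1.79% of the 16385 genes listed and 1.42% of the 11231 expressed genes. Past 1.3-fold, 4 of 64 were higher (background 4.11%), adding Pabpc1 (0.45) and Eif3j2 (0.44), and 1 was lower (background 1.29%), Eif3f (-0.44). Eif4ebp3 was also lower at 6 h (-0.52) and 8 h (-0.45), but its HU210 values there were under 1 FPKM. For all 5 expressed factors past 1.3-fold at 8 h, the DMSO library lay farther than HU210 from the median of the other 6. At 6 h this held for 1 of 4. Against the averaged DMSO level, 1 of the 5 at 8 h was still past 1.3-fold. Medians over the factors were 0.055 and 0.048 for 6 and 8 h, beside 0.063 and 0.044 over all expressed genes.

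Gspt1 (chr16:11216336-11254418) was the only factor past 1.5-fold at more than 1 hour. It measured 58.3, 41.4, 76.5 and 67.4 FPKM with HU210 and 61.8, 61.9, 48.4 and 35.7 with DMSO. The DMSO values at 6 and 8 h were below those at 2 and 4 h, and the HU210 values at 6 and 8 h were above. Set against the DMSO level averaged over all hours, the HU210 value differed by 0.58 at 6 h and 0.40 at 8 h. Its partner Etf1 was 0.21 and 0.31 at these hours, and its paralog Gspt2, at 1.60 to 2.57 FPKM, 0.29 and 0.10.

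Eif4a1 (chr11:69480438-69485925) ran the other way. It measured 425, 278, 176 and 224 FPKM with HU210 and 324, 187, 269 and 213 with DMSO, higher with drug at 2 and 4 h, lower at 6 h and close to DMSO at 8 h (0.074). The 2 h HU210 library was the highest of the 8 and the 6 h HU210 library the lowest. Eif4a2, with the same helicase role, differed by -0.18, -0.29, 0.17 and 0.21 over the 4 hours, the opposite sign at the first 3, and Eif4a3, the helicase of the exon junction complex, by -0.15, 0.092, 0.16 and 0.04. The near-identical copy shown above applies to the Eif4a1 values.

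Eif3s6-ps2 measured 220.1, 160.3, 193 and 182 FPKM with HU210 and 205, 180.5, 171 and 119.9 with DMSO, and its difference at 8 h rests on the low 8 h DMSO value. Its annotated length is 219 bases, close to the size of the fragments sequenced, and its levels were 1.77 to 2.69 times those of the parent gene Eif3e, which differed by 0.24 at 8 h. Eif3j2 measured 26.5, 21.9, 34.0 and 29.9 with HU210 and 35.3, 31.1, 24.5 and 21.7 with DMSO. Its coding sequence and that of Eif3j1, whose differences had the same signs (-0.39, -0.19, 0.22 and 0.24), match without a mismatch over nearly their full length, so reads from that stretch cannot be told apart between the pair. Eif3f measured 159, 252, 195 and 246 with HU210 and 218, 269, 197 and 334 with DMSO, lower with drug at every hour, with differences of -0.093 at 4 h and -0.019 at 6 h.

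**Figure D3:**
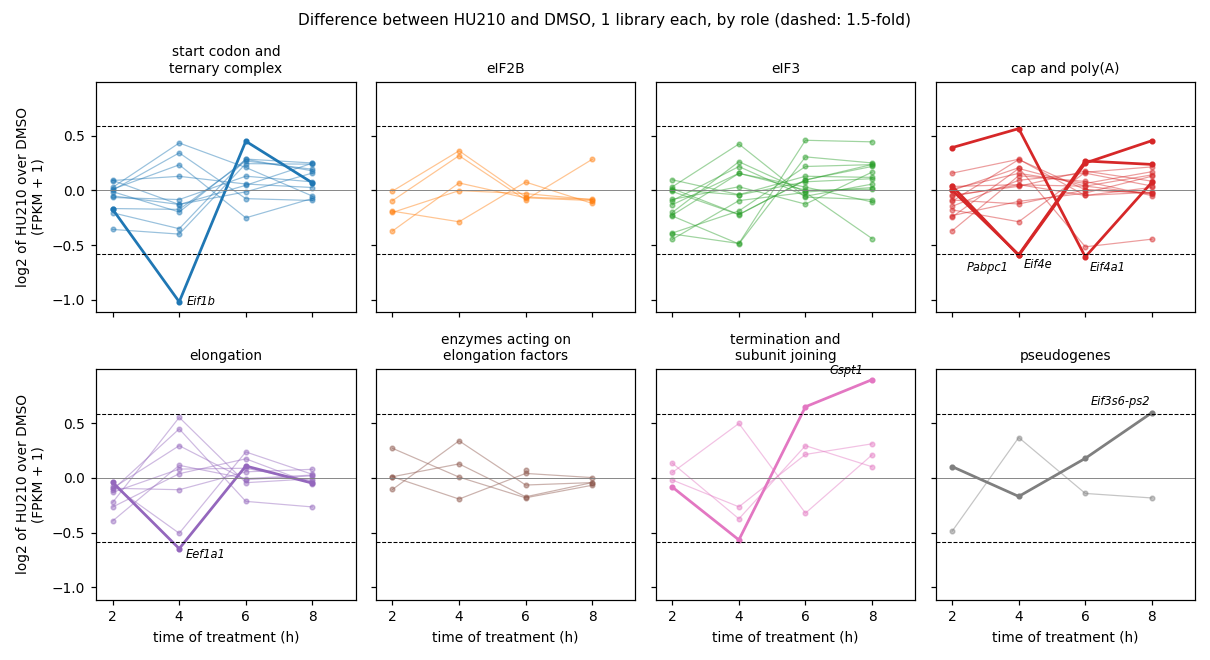
Log2 of HU210 over DMSO (FPKM + 1) at 2, 4, 6 and 8 h for translation factor genes in 8 panels by role. The 5 Eif1ad copies are not drawn, and the 7 genes that pass 1.5-fold (dashed lines) are drawn heavier and named. The eIF2B, eIF3 and modifying enzyme panels hold no gene past 1.5-fold, and the widest scatter is at 4 h.

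The remaining eIF3 subunits were expressed at 221 to 259 FPKM for the core subunit gene Eif3c, 220.2 to 254 for Eif3d, whose protein can itself bind a cap, 168 to 196 for Eif3l, 127 to 161 for Eif3i, 129 to 158 for Eif3g, 82.5 to 97.9 for Eif3a, the largest subunit, and 25.2 to 33.7 for Eif3m. None of these 7 differed by 1.3-fold at any hour. Eif3b, a core subunit, measured 133, 139, 162 and 166 with HU210 and 157, 196, 131 and 139 with DMSO, where only the 4 h pair passed 1.3-fold, with the 4 h DMSO value the highest of the 8. Of the partners of the cap helicase, Eif4h lay at 156 to 198 FPKM and Eif4b at 128 to 159, with 4 h differences of 0.28 and 0.20. The eIF4G genes had 4 h differences of 0.052 for Eif4g1, 0.28 for Eif4g2 and -0.12 for Eif4g3, and Eif4g3 ranged over 58.8 to 79.8 FPKM. Of the eIF2B genes, Eif2b5, the catalytic subunit, measured 44.4, 51.6, 46.6 and 52.5 with HU210 and 51.3, 51.7, 47.6 and 55.8 with DMSO, and Eif2b4 (0.36) and Eif2b2 (0.32) had the highest 4 h differences of the complex.

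By role, the 12 genes of start codon selection and the ternary complex had medians of -0.031, -0.13, 0.17 and 0.12 at 2, 4, 6 and 8 h. Of the eIF2 subunits, Eif2s1, which stress kinases phosphorylate, lay between -0.084 and 0.13, Eif2s2 between -0.13 and 0.25, and Eif2s3x between 0.026 and 0.13. The 14 eIF3 genes had medians of -0.11, -0.04, 0.054 and 0.11, and the 15 expressed genes of cap and poly(A) binding -0.053, 0.052, 0.039 and 0.074. Among the latter Eif4ebp1, which holds eIF4E when mTOR is off, was higher with HU210 at every hour by 0.013, 0.16, 0.063 and 0.17. The 4 genes grouped as termination and subunit joining were Etf1, Gspt1, Gspt2 and Eif6, while Eif5b was counted with start codon selection. Medians of these 4 were -0.32, 0.25 and 0.26 at the last 3 hours. They became -0.077, 0.13 and -0.0021 when the DMSO level averaged over all hours was the reference. The 10 TOP genes had medians of -0.10, 0.02, 0.063 and -0.019, beside -0.083, 0.035, 0.055 and 0.071 for the other factors. The signs of these medians depend on the processing. Without the trend on GC content and length, 4 of 24 changed sign, all at 4 h, where the medians were then 0.076 for start codon selection and the ternary complex, -0.082 for cap and poly(A) binding, -0.079 for the TOP genes and -0.03 for the others. Against the averaged DMSO level 7 of the 24 changed sign, and with pairs centred on their median ratio 5 did. eEF2 kinase (Eef2k), which slows elongation by phosphorylating eEF2, differed by 0.34 at 4 h and between -0.11 and -0.044 at the other hours.

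No factor had all 4 HU210 libraries above or all 4 below the 4 DMSO libraries, a pattern met by 0.743% of 11306 genes. Higher with HU210 at 4 of 4 hours were 2 of 64 factors, Eif2s3x and Eif4ebp1 (background 4.5%), and lower at 4 of 4 were 2, Eif2b5 and Eif3f (background 3.43%). With the hours as replicates, the limma comparison of HU210 and DMSO with a term for the hour called 0 of the 64 factors and 0.0% of 11306 genes at an adjusted p of 0.05, and 0 factors and 148 genes had an unadjusted p under 0.05. The factor with the lowest p was Eif3f, at -0.25 ± 0.11 (log2 difference ± SE, adjusted p = 1). The comparison answers whether the drug shifted a gene in 1 direction over the whole 8 h, and its p-values measure the spread between hours of pooled libraries.

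The change with time was compared over both treatments. The late libraries (6 and 8 h) minus the early ones (2 and 4 h) gave 0 limma calls among the 64 factors and 0.0% of all genes, with 0 factors and 815 genes at an unadjusted p under 0.05. The difference was negative for 48 of the 64 factors (background 52.2%), with a median of -0.058 beside -0.0072 over all genes. The lowest p among factors belonged to Eef1b2, at -0.22 ± 0.096 (adjusted p = 0.685), and the largest difference to Eif4a1, at -0.41 ± 0.24 (adjusted p = 0.777).

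The difference between HU210 and DMSO reversed between early and late hours for many genes of the table, factors included. It was negative at 2 and 4 h and positive at 6 and 8 h for 15 of 64 factors (23.4%, background 25.1%), and the opposite for 5, Eef2kmt, Eif2a, Eif2d, Eif3k and Eif4g1 (background 5.22%). With pairs centred on their median ratio the first count was 10 factors (background 14.5%). The limma test of the late minus the early drug difference called 0 of the 64 factors and 0.0% of the genes, with 13 factors and 1925 genes at an unadjusted p under 0.05. With 2 pairs against 2, the absence of calls in this fit carries no weight. Gspt1 had the largest late minus early difference, 1.10 ± 0.21 (adjusted p = 0.218). Eif3j2 followed at 0.89 ± 0.13 (adjusted p = 0.218), Eif1b at 0.85 ± 0.30, Eif3b at 0.64 ± 0.16, Pabpc1 at 0.63 ± 0.25 and Eif5 at 0.62 ± 0.14, and Eif4a1 was the only negative one among the 13, at -0.74 ± 0.25 (adjusted p = 0.258). The median over the factors was 0.10 and that over all genes 0.12. After each library was centred on its median these were -0.044 and -0.031, so the sign of the median depends on the scaling.

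Differences moved with GC content at 4, 6 and 8 h, in the factors as in the whole table, while at 2 h the signs differed. Spearman's rho between the log2 difference and the GC content of a gene's exons was 0.15, 0.51, -0.28 and -0.14 at 2, 4, 6 and 8 h over the 11177 to 11246 expressed genes, and -0.058, 0.41, -0.38 and -0.31 over the 64 or 65 factors. These values are across genes that share the same pair of libraries, and no p is given. Gspt1 (41.5% GC), Eif4e (40.3%), Eif3j2 (40.2%) and Eif5 (41.1%) are on the low side of the 37.4 to 60.6% that the factors span, and Eif1b (50.2%) is near the median of 49.8%. After subtraction of a loess trend on both GC content and transcript length, the 4 h differences were -1.08 for Eif1b, -0.59 for Eef1a1, -0.43 for Pabpc1, -0.38 for Eif4e and -0.27 for Gspt1, and Gspt1 stood at 0.56 at 6 h and 0.86 at 8 h. Eif3b (-0.68), Eif1ax (0.73), Eef1d (0.63) and Eif4a1 (0.70) then passed 1.5-fold at 4 h. What the GC trend contributes to any one of these genes was not tested.

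**Figure D4:**
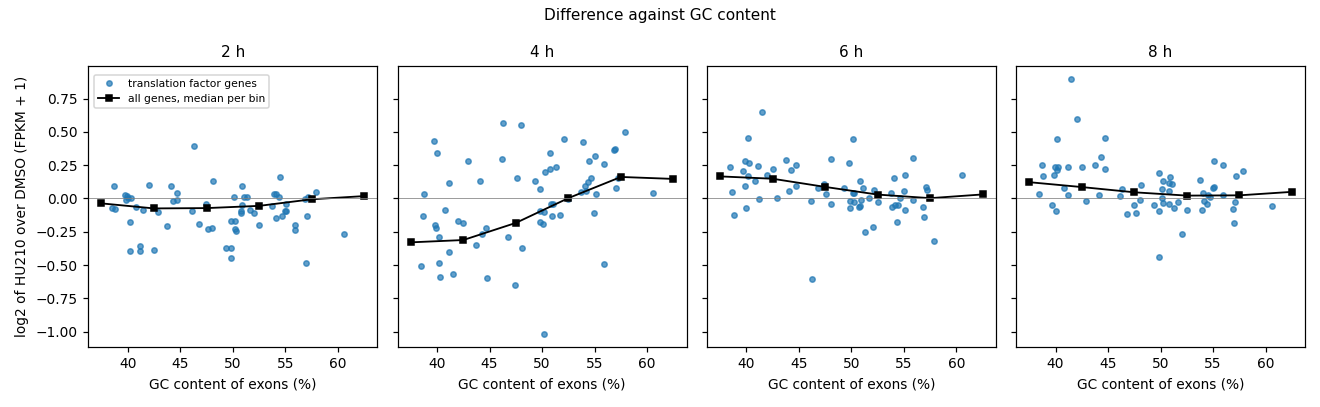
Log2 of HU210 over DMSO (FPKM + 1) against the GC content of exons (%) in 4 panels by hour. Each translation factor gene expressed at that hour is 1 dot, and black squares are medians of all expressed genes in bins of 5 percentage points. At 4 h the black line climbs from -0.33 in the lowest bin to 0.16 in the bin from 55 to 60%, and the dots are spread around it.

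Other genes of the translation pathway were counted from a list of 38, of which 37 were expressed at 2, 4 and 6 h and 38 at 8 h. In the 2 h pair 1 of them was higher and 1 lower past 1.3-fold (background 1.33% and 3.71%). The 4 h pair held 4 that were higher and 8 that were lower (background 8.9% and 19.8%), the 6 h pair 3 and 0 (background 6.26% and 1.44%), and the 8 h pair 2 and 1 (background 4.11% and 1.29%). Over the last 3 hours Paip1, which binds Pabpc1 and helps loop the mRNA, differed by -1.01, 0.72 and 0.40, and Rheb, the GTPase that activates mTOR, by -0.98, 0.58 and 0.53. Larp1, which binds TOP mRNAs, differed by -0.67 at 4 h and 0.0033 at 8 h, and Dohh, which makes the hypusine of eIF5A, by 0.60 at 4 h. Of the eIF2 kinases, Eif2ak3 (PERK) differed by -0.62 at 2 h and -0.45 at 8 h, Eif2ak4 (GCN2) by -0.53 at 4 h and Eif2ak1 by -0.29 at 4 h, and Eif2ak2 was listed only at 8 h (-0.11). Ppp1r15a, which restores eIF2, differed by 0.31 at 4 h, Pdcd4, which inhibits eIF4A, by 0.43 at 2 h and -0.39 at 4 h, Paip2 by -0.22 at 4 h and Mtor by -0.061.

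The factors were set beside 3 related lists. The cytosolic ribosomal protein genes, which are TOP mRNAs too, had a median of 0.23 at 4 h against 0.035 for the factors, with 24 higher and 13 lower past 1.3-fold of 71 (background 8.9% and 19.8%). Their median was 0.097 against the averaged DMSO level and 0.16 without the trend on GC content and length. The cytosolic aminoacyl-tRNA synthetases had 0.067 over 20 genes, and the mitochondrial translation factors -0.15 over 10, of which Tufm, the mitochondrial eEF1A counterpart, was at 0.40 and Mtif3, an initiation factor, at -0.84 with 0.71 at 6 h. At the other hours the medians of these 3 lists lay between -0.079 and 0.049.

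**Figure D5:**
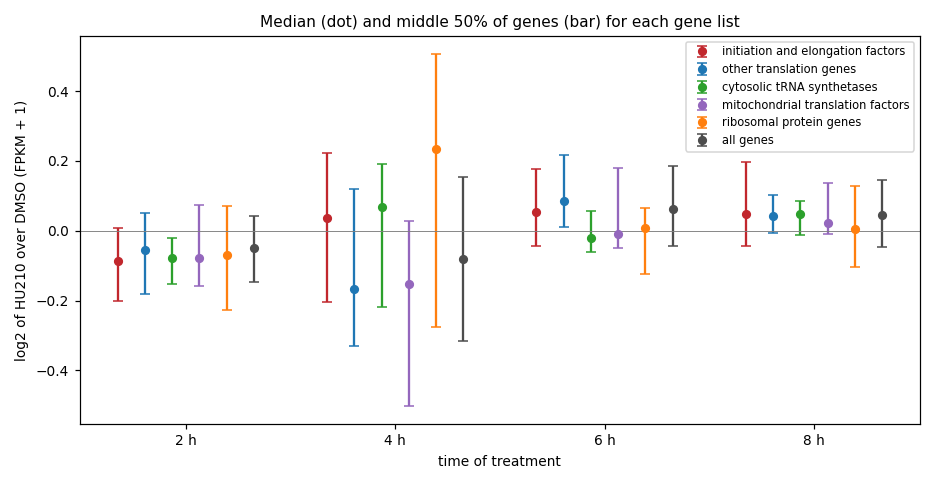
Median (dot) and middle 50% (bar) of the log2 of HU210 over DMSO (FPKM + 1) at each hour for expressed genes, for the translation factors, 4 related lists and all genes. At 4 h the ribosomal protein genes have the highest median (0.23) and the other translation genes the lowest (-0.17).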

How the data were processed

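Poly(A)-selected RNA of N2A cells was sequenced, 1 pooled library per condition. Per the labels and the methods of the study, reads were aligned to mm9 with TopHat2 2.0.8, Bowtie2 2.1.0 and SAMtools 0.1.7 and quantified with Cufflinks and Cuffdiff, with upper-quartile normalization and corrections for multiply mapped reads and fragment bias. The deposited values are FPKM with 1 added by the authors, and 1 was subtracted here. Normalization to the upper quartile makes values relative within a library. A table of the authors' own fold changes and p-values for called genes, and such columns in the main table, were not used.

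Genes were taken by identifier (16980 of 16980 found in the GENCODE vM1 annotation of NCBIM37, the mm9 assembly). Log2(FPKM + 1) was compared in limma 3.58.1 (R 4.3.3; moderated statistics with a mean trend, Benjamini-Hochberg adjustment over 11306 genes, those present at all 4 hours and averaging 1 FPKM or more). The fits were treatment with the hour as a block, late against early with treatment as a term, and their interaction. The fits were tested on simulated data with known changes of at least 1.5-fold. The first pair of fits recovered most of these changes, and smaller ones were not tried. The interaction called none, so its counts of 0 on the real data carry no weight. The late against early fit has no term for single hours, so differences among the early hours and among the late hours stay in its spread. Its recovery of known changes with such differences present was not tested. Near-identical copies were sought with BLAST 2.17.0. The loess trend used a span of 0.3. The genes and lists were chosen with earlier results of these data known. Any of the 72 genes could be named. Values in all 8 libraries were given for factors past 1.5-fold, and were planned for factors called by limma, of which there were none. The most abundant of each role were given as a mean and SD, and paralogs mostly as ratios or ranges. The values of 1 cell type marker are not reported here. The list of other translation genes was described by counts, with preset names and those past 1.5-fold. Alternatives were other thresholds, pseudocounts, references and centring, no filter, leaving out each hour, and removal of the GC and length trend. Tables were made with Python 3.11.15, pandas 2.3.3, numpy 2.4.6 and scipy 1.17.1.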

Additional observations from a re-analysis of the deposited data

How the results depend on the processing

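The number of factors past 1.5-fold was 0, 4, 2 and 2 at 2, 4, 6 and 8 h. With the threshold at 1.3-fold it was 6, 15, 5 and 6. With the mean of the 4 DMSO libraries as reference it was 2, 0, 0 and 0. With a pseudocount of 0.1 it was 1 at 2 h, 7 at 6 h and 4 at 8 h, low genes being counted. With pairs centred on their median ratio it was 1 at 8 h, and without the trend on GC content and length 1 at 6 h and 1 at 8 h. The cause of each change was not tested. The other planned settings left these counts within 1.5 times. The limma comparisons gave 0 factors under every setting, the fits without 1 hour included, which ranged from 0 to 0 for the drug and for late against early. Without the 4 h libraries, 6 factors and 396 genes had an unadjusted p under 0.05 for the drug. For the 8 differences past 1.5-fold the direction held under all 4 alternatives, and 6 of the 8 moved by more than the SD of the DMSO libraries when their mean was the reference. These 8 were picked for their size, and the pseudocount and the centring shift values too little to turn such a sign. The held direction therefore says little. The drug comparison pairs the libraries of an hour, and without this block it also gave 0 factors, with 91 genes at an unadjusted p under 0.05 against 148. The labels give no replicate numbers. One pooled library per condition limits every value at a single hour.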
